A study of Mus musculus with 2 samples.

Results

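The 6 genes described here encode complement proteins or their inhibitor, *C1ra*, *C1s1*, *C4b*, *C3*, *Cfb* and *Serping1*, and were taken by symbol from the 32285 genes of a single-cell RNA-seq series of mouse bone and muscle. Cells were sorted for tdTomato from mice of the genotype Clec3b.creERT2; Ai14.R26.tdTomato, in which tamoxifen lets Cre expressed from *Clec3b* switch on tdTomato permanently, so that cells expressing *Clec3b* at that time and their descendants are marked. The right femur was fractured and stabilized 2 weeks after tamoxifen, and 3 weeks after surgery the callus of the fractured femur and the intact diaphysis of the other limb with its muscle were collected. The same 3 littermates, labelled male and of an age the labels do not give, were pooled into 1 intact (untreated) and 1 callus (Fracture) library, so mice cannot be told apart, no test between the libraries exists, and the intact limb is that of an injured animal.

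Complement is a cascade of plasma proteins that marks targets for uptake and recruits leukocytes. In the classical pathway C1q directs the proteases C1r and C1s to a surface, where C1s cleaves C4 and C2 into a convertase that splits C3. In the alternative pathway factor B joins deposited C3b to form a further convertase, and the C1 inhibitor encoded by *Serping1* inactivates C1r and C1s. The liver makes most of the circulating proteins, but fibroblasts and macrophages also make several of them locally.

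The genes lie in 2 pairs and 2 single positions (GRCm38, GENCODE M21). *C1ra* (chr6:124512405-124523443, plus strand, 11 exons) and *C1s1* (chr6:124530345-124542359, minus strand, 12 exons) are 6.90 kb apart. *C4b* (chr17:34728380-34743882, minus strand, 41 exons) and *Cfb* (chr17:34856374-34862518, minus strand, 18 exons) are 112 kb apart within the major histocompatibility region. *C3* is at chr17:57203970-57228136 (minus strand, 41 exons) and *Serping1* at chr2:84765387-84775444 (minus strand, 8 exons). Promoter sequence from 250 bases before to 50 after the start was at hand for 3 of the 6 genes (RefSeq, GRCm38.p6). The letters TTGCNNAA are one form of the site bound by C/EBP factors, which are known regulators of acute-phase genes. They are shown because all 3 of these genes hold them on either strand in at least 1 promoter window, so their presence here is no test. The 3 genes have 4 windows, and 1 window of *C1s1* lacks the match. Of all 32851 promoters 10.8% hold these letters. The capitals mark the match, and a match is a description of letters and not of binding.
C3: ggaaactatgTTGCGAAAttttgggcagtc
C1ra: tttttgctgtTTATGCAAatgcttcattcc
C1s1: agagagaaTTAGGCAAtctcaaaattcccc
The *C3* piece is at chr17:57228162-57228191 on the minus strand, with the match 45 bases before the start. The *C1ra* piece is at chr6:124512627-124512656 on the plus strand, with the match 16 bases after the start, and the *C1s1* piece at chr6:124542580-124542609 on the minus strand, with the match 242 bases before the start of 1 of its windows. TATAAA (13.6% of all promoters) was found in *C3* alone, 14 bases after the start, and TTCNNNGAA (8.30%) in *C1ra* alone. A loose form of the NF-κB motif, GGG and CC with 5 bases of any kind between them (50.8%), was found in *C3* and *C1s1*. There its matches overlap no base of the TTGCNNAA match.

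The intact library held 1872 barcodes and the callus library 3987, with 1 barcode sequence in common, and 1207 and 3295 cells passed limits of 500 detected genes and 10% mitochondrial unique molecular identifiers (UMIs), at medians of 4939 and 6843 UMIs. *Xist*, which is transcribed from an inactivated X chromosome, was found in 258 of 287 intact and 259 of 281 callus stromal cells, whereas 4 Y-linked genes held 1 and 0 UMIs, which goes against the label male in both libraries. Cells were assigned by counting detected markers. Stromal cells needed at least 5 of 10 stromal and at most 3 of 7 haematopoietic markers. This gave 286 intact and 218 callus fibroblasts, of which 204 and 115 were *Pi16*-type, 52 and 41 *Col15a1*-type, 5 and 31 tenocyte-like and 25 and 31 without a further type. The fibroblasts carried *Clec3b* at 1469 and 1284 CPM (a gene's UMIs per 1000000 UMIs, summed over the cells of a type), against 1.41 in 30 callus osteoblast-like and 3.73 in 33 callus cells resembling bone marrow stromal cells (BMSC-like). The types held markers of their own gates, with *Pi16* at 3465 and 2331 CPM in *Pi16*-type and *Bglap* at 49744 CPM in osteoblast-like cells. As cells were assigned by such markers, these levels are no separate check of the types. *Col15a1*-type cells also held the tenocyte markers *Thbs4* at 122 and 782 CPM and *Cilp* at 473 and 881 CPM. In callus tenocyte-like cells these were at 2784 and 2194 CPM. BMSC-like cells held *Cxcl12* at 13714 and *Adipoq* at 2034 CPM. They also held the osteoblast gene *Ibsp* at 6887 CPM, above osteoblast-like cells at 3755 CPM, and *Bglap* at 198 CPM. The sort also left 307 intact and 803 callus neutrophil-like, 70 and 561 monocyte-like and 16 and 61 macrophage-like cells, and tdTomato itself was not analysed here.

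In the intact library each of the 6 genes was at least 2-fold higher in fibroblasts than in every other type of at least 50 cells, 5 types in all, which was true of 20.2% of genes tested. The 16 intact macrophage-like cells were too few for that comparison and held more *C4b*, at 348 CPM, than fibroblasts did. In the callus library the 2-fold lead held for 4 of 6 genes against 9 types, with a share of 10.8% over all genes. The 6 genes were chosen as complement genes made by stroma, with earlier results of these data known. The leads in fibroblasts in both libraries are thus no test. The 2 exceptions in the callus were *C4b* and *Cfb*, for which macrophage-like cells came closest among the types of at least 50 cells. Fibroblasts exceeded the next type by 1.50-fold for *C4b* and 1.97-fold for *Cfb* there. For *Serping1* the lead over the next of these types was 32.6-fold in the intact and 63.8-fold in the callus library. The 33 BMSC-like cells, under the limit of 50, held *Serping1* at 784 CPM and *C4b* at 138 CPM, nearer to the fibroblasts than any of the types compared. Of the genes' UMIs in the intact library, fibroblasts held 98.4% for *C1s1*, 98.0% for *C1ra*, 97.0% for *Serping1*, 91.8% for *Cfb*, 78.1% for *C3* and 57.9% for *C4b*. These shares depend on how many cells of each type were sorted.

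**Figure D1:**
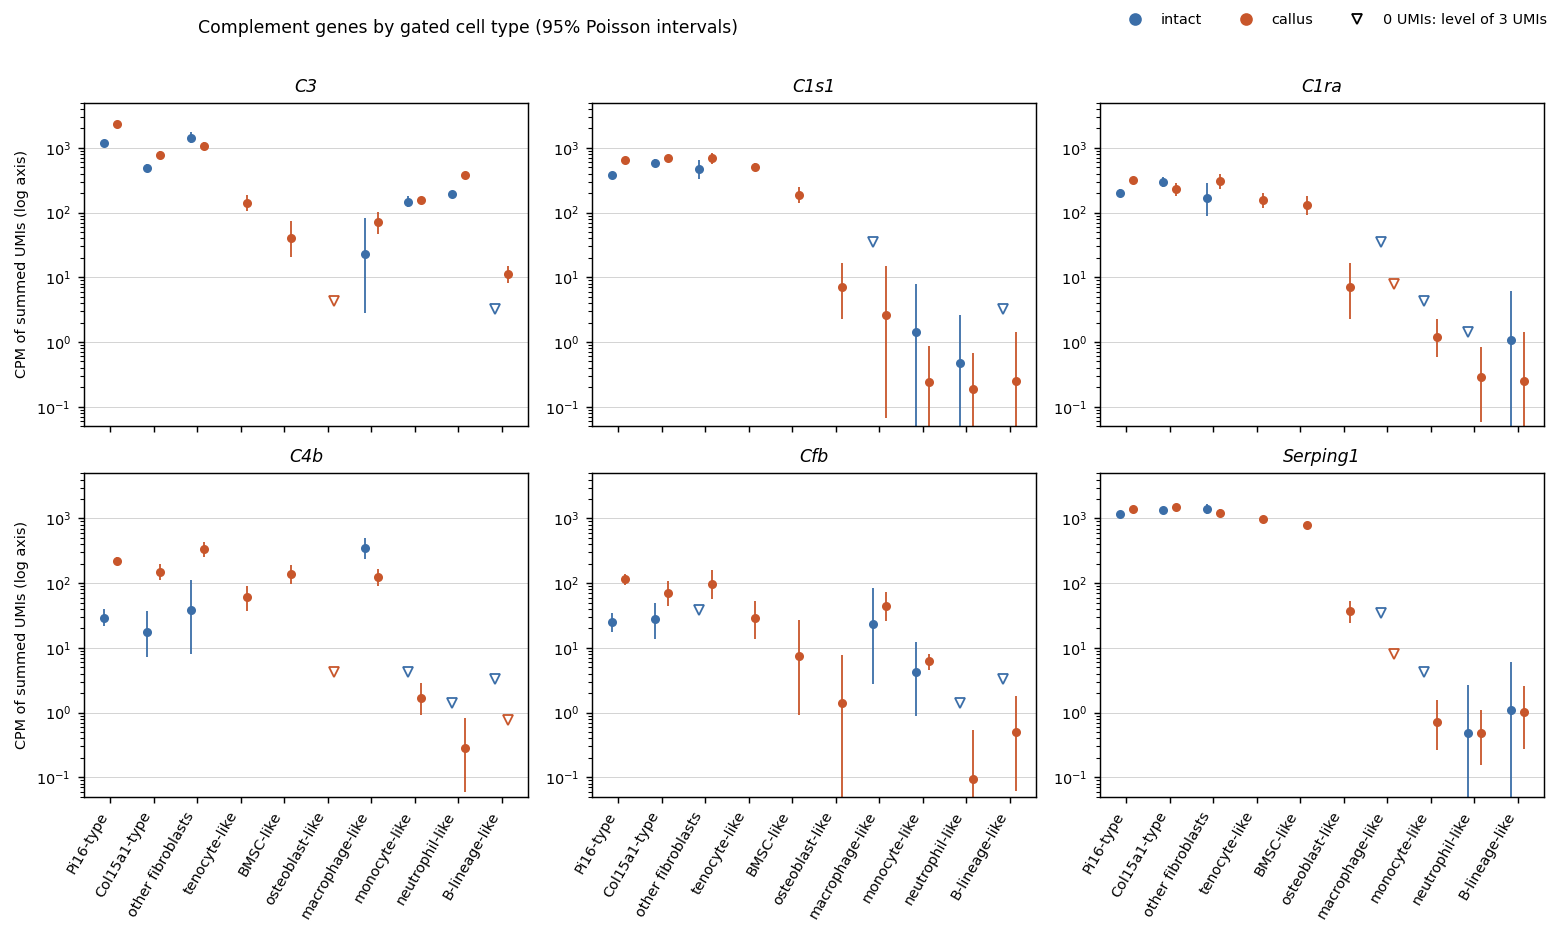
Level of each complement gene in each gated cell type, as CPM of summed UMIs on a log axis with 95% Poisson intervals; colours are the intact and callus libraries, and open triangles stand for 0 UMIs at the level of 3 UMIs. *C1s1*, *C1ra* and *Serping1* are high in fibroblast types and BMSC-like cells and at most 2.64 CPM where detected in the haematopoietic types drawn, whereas *C3* reaches 381 CPM in callus neutrophil-like cells and *C4b* 348 CPM in intact macrophage-like cells.

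Callus fibroblasts carried more *C4b* and *Cfb* than intact fibroblasts, with smaller differences for *C1s1* and *C3* and almost none for *Serping1*. At least 2-fold higher in the callus were 2 of the 6 genes, against 4.75% of the genes tested in the same cells, and 0 were 2-fold lower, against 2.58%. The 6 genes had a median log2 ratio of 0.55, and all genes tested one of 0.03. All intervals given with a ratio or a CPM are exact at 95% and cover counting error only, not the spread between cells or between mice.

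*C1ra* and *C1s1* encode the paired proteases that start the classical cascade. Intact fibroblasts held *C1s1* at 424 CPM (95% interval 396 to 453) and callus fibroblasts at 629 CPM (593 to 668), a log2 ratio of 0.57 (0.44 to 0.70). *C1ra* was at 223 CPM (203 to 245) and 267 CPM (243 to 292), a log2 ratio of 0.26 (0.07 to 0.45). Both intervals of the ratio leave out 0 by counting error. The difference was larger in *Pi16*-type fibroblasts, where *C1s1* was at 379 and 645 CPM (log2 ratio 0.77, 0.60 to 0.93) and *C1ra* at 204 and 314 CPM (0.63, 0.39 to 0.86). In *Col15a1*-type fibroblasts *C1s1* was at 592 and 689 CPM, and *C1ra* was lower in the callus at 231 than in the intact library at 297 CPM, with a log2 ratio of -0.37 whose interval spans 0 (-0.81 to 0.07). *Col15a1*-type cells exceeded *Pi16*-type cells in the intact library by a log2 ratio of 0.64 (0.42 to 0.86) for *C1s1* and 0.55 (0.23 to 0.86) for *C1ra*. In the callus the corresponding values were 0.09 (-0.14 to 0.32) for *C1s1* and -0.45 (-0.84 to -0.07) for *C1ra*. The order of these types thus turned for *C1ra*, where 1 cell gave 16.7% of the 72 callus *Col15a1*-type UMIs. For *C1s1* the callus interval spans 0 and gives no order.

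*C4b* encodes the C4 protein that C1s cleaves, and it had the largest ratio of the 6 genes in all fibroblasts. Intact fibroblasts held it at 27.1 CPM (20.4 to 35.3, 55 UMIs) and callus fibroblasts at 186 CPM (166 to 207, 326 UMIs), 6.86-fold higher (log2 ratio 2.78, 2.36 to 3.22). In *Pi16*-type fibroblasts it was at 29.5 and 218 CPM (log2 ratio 2.88, 2.41 to 3.38). In *Col15a1*-type fibroblasts it was at 17.8 and 151 CPM (3.08, 1.93 to 4.47), on 7 and 47 UMIs, of which 57.1% and 31.9% came from 1 cell. In the fibroblasts without a further type it was at 38.7 CPM on 3 UMIs and at 335 CPM on 58 UMIs. All these types were higher in the callus. The UMIs were also spread over more cells. In cells thinned to 2000 UMIs each, 3.83% (1.85 to 6.93) of 261 intact and 20.4% (15.1 to 26.6) of 201 callus fibroblasts had a *C4b* UMI, against at most 0.6% of B-lineage-like cells for any of the 6 genes. The 10% of *Pi16*-type cells richest in *C4b* held 91.1% of its UMIs in the intact and 64.0% in the callus library.

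**Figure D2:**
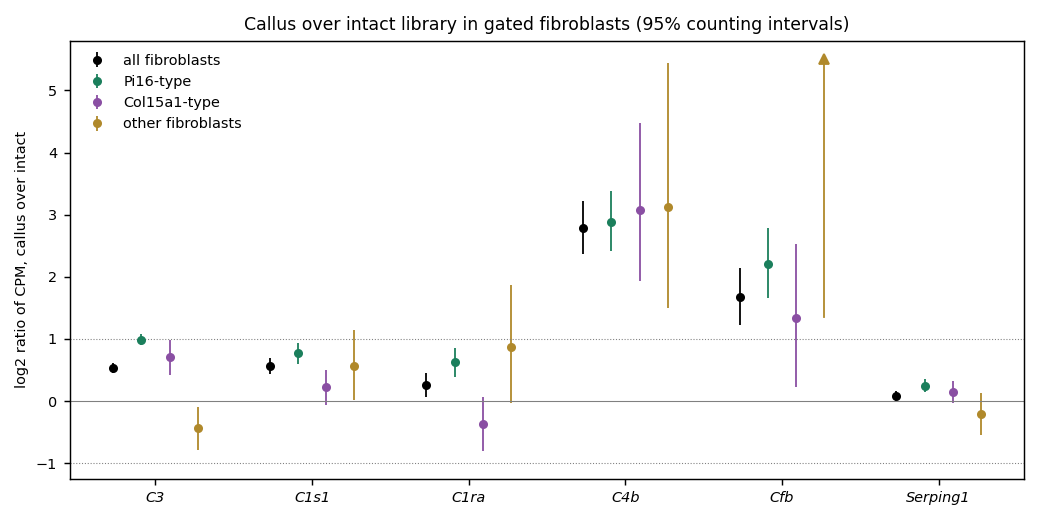
Log2 ratio of CPM, callus over intact, for each gene in all fibroblasts and in the fibroblast types, with 95% counting intervals; dotted lines mark 2-fold, and the arrow marks 0 intact UMIs of *Cfb*, drawn from the ratio that 3 intact UMIs would give. *C4b* lies between 2.78 and 3.12 in every group drawn, *Cfb* at 1.68 in all fibroblasts, and *Serping1* between -0.21 and 0.25.

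*C3* encodes the central protein on which all pathways converge. Intact fibroblasts held it at 1044 CPM (1000.2 to 1090) and callus fibroblasts at 1508 CPM (1452 to 1567), a log2 ratio of 0.53 (0.45 to 0.61). *Pi16*-type fibroblasts differed more, with 1189 and 2357 CPM (1.98-fold, log2 ratio 0.99, 0.90 to 1.08). *Col15a1*-type fibroblasts held less at 483 and 785 CPM (0.70, 0.42 to 0.98), and 1 callus cell gave 35.5% of their UMIs. The fibroblasts without a further type went the other way, from 1443 CPM in the intact to 1064 CPM in the callus library (-0.44, -0.79 to -0.09). These last cells were shallower, with medians of 2865 and 3441 UMIs, their callus cells held the osteoblast gene *Bglap* at 405 CPM, and 1 cell gave 26.8% and 30.4% of their *C3* UMIs.

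*C3* also separated the fibroblast types from each other. *Col15a1*-type cells were below *Pi16*-type cells by a log2 ratio of -1.30 (-1.52 to -1.08) in the intact and -1.59 (-1.78 to -1.39) in the callus library. It was the only one of the 6 genes at least 2-fold lower in this comparison in either library, against 11.0% and 8.56% of all genes, and 0 were 2-fold higher, against 7.6% and 6.6%. *C3* in single *Pi16*-type cells had a median of 929 CPM in the intact and 1483 CPM in the callus library. The upper end moved further, from 3091 to 5735 CPM at the ninetieth percentile, and the richest 10% of cells held 32.5% and 44.0% of the UMIs. After thinning, 69.9% (62.9 to 76.3) of 193 intact and 83.5% (75.2 to 89.9) of 109 callus *Pi16*-type cells had a *C3* UMI. The corresponding shares of *Col15a1*-type cells were 34.0% and 34.1%. Over all fibroblasts the share was 62.5% and 59.7%, in a population that was 71.3% *Pi16*-type in the intact and 52.8% in the callus library.

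*Cfb* encodes factor B, the protease of the alternative convertase. Intact fibroblasts held it at 27.6 CPM (20.8 to 35.8, 56 UMIs) and callus fibroblasts at 88.4 CPM (75.1 to 103, 155 UMIs), 3.20-fold higher (log2 ratio 1.68, 1.23 to 2.15). With equal weight for 4 fibroblast types the ratio was 0.17, since the 5 intact tenocyte-like cells held 7 *Cfb* UMIs, 85.7% of them in 1 cell. In *Pi16*-type fibroblasts it was at 24.9 and 115 CPM (2.21, 1.67 to 2.79). In *Col15a1*-type fibroblasts it was at 27.9 and 70.5 CPM (1.33, 0.23 to 2.53) on 11 and 22 UMIs, a ratio that fell to 0.06 when cells were thinned to equal depth. In the fibroblasts without a further type, 0 UMIs stood against 98.3 CPM in the callus, at least 2.54-fold higher when 3 UMIs are allowed to the intact cells and the 17 callus UMIs are taken as measured. After thinning, 6.90% (4.14 to 10.7) of intact and 13.9% (9.46 to 19.5) of callus fibroblasts had a *Cfb* UMI, and 6.22% and 19.3% of *Pi16*-type cells. *Cfb* and *C4b* were the genes at least 2-fold higher in the callus in each of the *Pi16*- and *Col15a1*-type cells, 2 of 6 both times, where 3.2% and 6.96% of all genes were. In *Col15a1*-type cells both genes reached 20 UMIs over both libraries only through the callus cells. *C3* in *Pi16*-type cells lay at the limit, reaching 2-fold in 5 of 10 settings (0.85 to 1.13). In the same comparisons 0 of 6 were 2-fold lower, against 2.64% and 4.87%. Among fibroblasts without a further type 1 of 5 genes with enough UMIs was 2-fold higher, *C4b*, against 10.6%, and 0 were lower, against 7.33%. There *C4b* also reached 20 UMIs only through the callus cells.

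*Serping1* encodes C1 inhibitor, the brake on C1r and C1s. Intact fibroblasts held it at 1247 CPM (1199 to 1296) and callus fibroblasts at 1319 CPM (1266 to 1374), a log2 ratio of 0.08 with an interval of -0.00 to 0.16. In *Pi16*-type fibroblasts it was at 1185 and 1409 CPM (0.25, 0.15 to 0.35). *Col15a1*-type fibroblasts held 1341 and 1487 CPM (0.15, -0.03 to 0.33), log2 ratios of 0.18 and 0.08 to *Pi16*-type cells. Its UMIs were the most evenly spread of those of *C3*, *C4b*, *Cfb* and *Serping1*, with 25.4% and 25.8% in the richest 10% of *Pi16*-type cells. For *C4b* and *Cfb* this share also depends on their low counts. After thinning, 86.6% of intact and 87.1% of callus fibroblasts had a *Serping1* UMI. Of the thinned fibroblasts with *C1s1* or *C1ra*, 86.7% in the intact and 87.3% in the callus library also had a UMI of this inhibitor.

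Counted together, at least 3 of the 6 genes were found in 50.3% (43.0 to 57.5) of intact and 75.2% (66.0 to 83.0) of callus *Pi16*-type cells thinned to 2000 UMIs. Of the *Col15a1*-type cells 25 of 50 and 19 of 41 did. The shares were 25.8% in callus tenocyte-like cells, 21.2% in BMSC-like cells and 0 of 28 in osteoblast-like cells, 25 of which had a UMI of none of the genes.

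**Figure D3:**
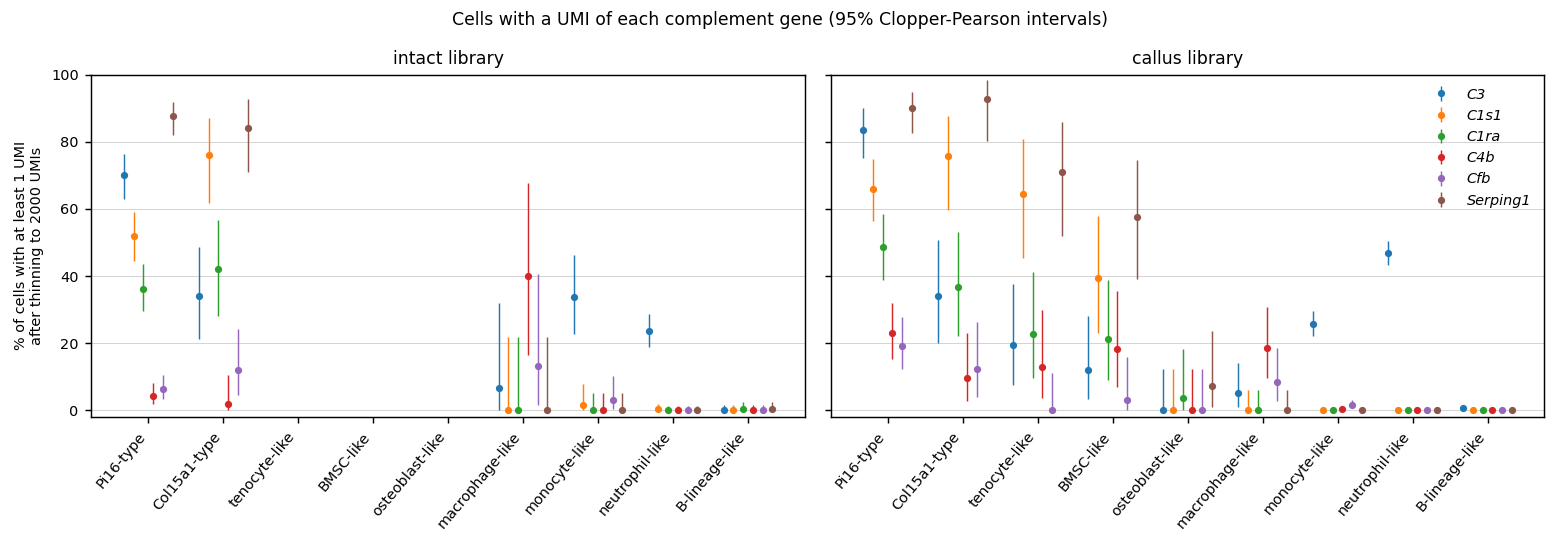
Share of cells with at least 1 UMI of each gene after thinning every cell to 2000 UMIs, by type and library, with 95% Clopper-Pearson intervals. In *Pi16*-type cells *Serping1* is found in 87.6% (intact) and 89.9% (callus), and *C4b* goes from 4.15% to 22.9%. B-lineage-like cells stay at or below 0.6% for every gene.

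Markers of other cells also differed between the fibroblasts of both libraries. The summed level of the 10 neutrophil markers was 180 CPM in intact and 320 CPM in callus fibroblasts, that of the 8 macrophage markers 0.49 and 10.3 CPM (1 and 6 of 8 with a UMI, *Adgre1* and *Ms4a7* at 0 in both), that of the 7 haematopoietic markers 23.7 and 24.5 CPM, and that of the 8 muscle markers 156 and 586 CPM. If fibroblasts carried RNA of neutrophil-like cells in proportion to these markers, it would give them 0.0797 and 0.395 CPM of *C3*, and that of macrophage-like cells 0.0266 and 0.209 CPM of *C4b*. The measured levels were 1044 and 1508 CPM for *C3* and 27.1 and 186 CPM for *C4b*. This scaling takes 1 fixed profile per type, from 16 intact cells for macrophages, and the part of such RNA in the ratios was not tested. Leaving out fibroblasts that held at least 50 muscle UMIs kept 286 of 286 intact and 216 of 218 callus cells. The log2 ratio of callus over intact was then 2.80 for *C4b*, 1.69 for *Cfb* and 0.54 for *C3*. With so few cells left out, this is no check on muscle RNA in the ratios, which was not tested. Cells of the *Pi16* type with 2 or 3 of the markers *Ptx3*, *Has1* and *Tnfaip6*, set against the other *Pi16*-type cells, gave intervals of the ratio that spanned 0 for each of the 6 genes in the intact library. In the callus, cells in that state held *C4b* at 161 CPM and the others at 324 CPM (-1.01, -1.43 to -0.60). The state was called without thinning, and its 66 callus cells were deeper than the 49 others, with medians of 9142 and 6188 UMIs. Of the 200 *C4b* UMIs of all these cells, 11.0% came from 1 cell. *C1s1* was likewise lower in that state (-0.32, -0.56 to -0.08) and *C3* higher (0.17, 0.04 to 0.30). The callus exceeded the intact library for *C4b* in both states, by log2 ratios of 2.40 and 3.60.

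Osteolineage cells differed among themselves. In 30 callus osteoblast-like cells *C3* and *C4b* had 0 UMIs, a limit of 4.23 CPM. Callus *Pi16*-type cells, with their own levels taken as measured, were 557-fold above this limit for *C3* and 51.4-fold for *C4b*. The exact intervals of the log2 ratio to *Pi16*-type cells, which include their counting error, ended at -8.82 and -5.37. *C1s1* and *C1ra* were at 7.05 CPM each, with all 5 *C1s1* UMIs in 1 cell, *Cfb* at 1.41 CPM (1 UMI) and *Serping1* at 36.7 CPM (26 UMIs). All 6 of 6 genes were at least 2-fold below *Pi16*-type cells, where 37.0% of genes were and the median of all genes was -0.64, and 0 were above, against 7.98%.

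The BMSC-like cells, named for marker genes of marrow cells that support blood formation, held part of the set. *C4b* was at 138 CPM (97.2 to 190), a log2 ratio of -0.66 to *Pi16*-type cells, and *Serping1* at 784 CPM (-0.85). *C1s1* was at 187 CPM (-1.79) and *C1ra* at 131 CPM (-1.27). *C3* was far lower at 41.1 CPM (-5.84), and *Cfb* was at 7.47 CPM on 2 UMIs. Thus 4 of 6 genes were 2-fold lower than in *Pi16*-type cells, against 15.9% of genes, and 0 higher, against 15.3%. Compared with osteoblast-like cells the BMSC-like cells were 26.5-fold higher for *C1s1*, 18.5-fold for *C1ra* and 21.4-fold for *Serping1*. For *C3* and *C4b*, with 0 UMIs in osteoblast-like cells, the exact intervals began at 6.64-fold and 25.3-fold. All 4 genes with enough UMIs for this comparison were 2-fold higher, against 38.1% of genes, and 0 lower, against 7.27%. Of these, *C1s1*, *C1ra* and *C4b* had enough UMIs only through the BMSC-like cells, with 5, 5 and 0 UMIs in osteoblast-like cells. *C3*, with 11 UMIs in BMSC-like and 0 in osteoblast-like cells, and *Cfb*, with 2 and 1, had too few. The count of 4 thus depends on the limit of UMIs and is no test.

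Tenocyte-like cells, named for marker genes of tendon fibroblasts, shared the transcripts of the inhibitor and of C1s but held little *C3*. In the 31 callus cells *Serping1* was at 984 CPM (log2 ratio to *Pi16*-type -0.52) and *C1s1* at 505 CPM (-0.35). *C3* was at 141 CPM (-4.07), *C1ra* at 155 CPM (-1.02), *Cfb* at 28.7 CPM (-2.01) and *C4b* at 60.2 CPM (-1.85), with 61.9% of the *C4b* UMIs in 1 cell. This put 4 of 6 genes at least 2-fold lower, against 13.2% of genes, and 0 higher, against 7.28%. The gate named 5 such cells in the intact library, too few for a comparison. Types taken from clusters of cells instead named 78 intact and 94 callus cells tenocyte-like, 5 and 30 of them also by the gate.

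In neutrophil- and monocyte-like cells the signal was mostly *C3*. In macrophage-like cells *C4b* made up 88.2% of 34 UMIs of the 6 genes in the intact and 51.1% of 92 in the callus library. Neutrophil-like cells held *C3* at 197 CPM (178 to 217) in the intact and 381 CPM (370 to 393) in the callus library, a log2 ratio of 0.95 (0.81 to 1.10). All genes in these cells had a median of 0.72 and 58.3% of them lay below *C3*. It was the 1 of the 6 genes with enough UMIs there, was not 2-fold higher, and 39.9% of all genes were (4.98% lower). Each of the other 5 genes had at most 5 UMIs in 307 or 803 cells. Neutrophil-like cells rich in the granule transcripts *Camp*, *Ngp* and *Ltf* (at least 2% of UMIs), a split chosen after values were seen, held *C3* at 236 and 464 CPM (0.97, 0.82 to 1.13). Those under 0.05% held it at 29.2 and 113 CPM (1.96, 0.81 to 3.42). After thinning, *C3* was found in 31.2% and 56.8% of the granule-rich cells and in 4.26% and 16.4% of the granule-poor ones.

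Monocyte-like cells held *C3* at 148 and 157 CPM (0.08, -0.20 to 0.38), and 0 of 2 genes with enough UMIs were 2-fold higher or lower, against 15.1% and 3.85%. Their *Cfb* was low at 4.23 and 6.20 CPM, yet 51 UMIs in 561 callus cells made up 21.1% of that library's *Cfb* UMIs. Macrophage-like cells held *C4b* at 348 CPM (234 to 496, 30 UMIs in 16 cells) in the intact and 124 CPM (91.2 to 165, 47 UMIs in 61 cells) in the callus library, with 33.3% of the intact UMIs in 1 cell. After thinning, 40.0% (16.3 to 67.7) of 15 intact and 18.6% (9.69 to 30.9) of 59 callus macrophage-like cells had a *C4b* UMI, with intervals that overlap. Their *C3* was at 23.2 CPM on 2 UMIs and at 71.3 CPM. Their *Cfb* was at 23.2 CPM on 2 UMIs and at 44.9 CPM, and *C1ra* and *Serping1* were at 0 UMIs in both libraries.

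The share of each gene's UMIs by type differed between the libraries. These shares follow which cells came through the tdTomato sort as well as the level per cell, and the parts cannot be told apart. Fibroblasts held 78.1% of *C3* UMIs in the intact and 31.2% in the callus library, and neutrophil-like cells 15.2% and 47.2%. For *C4b* the fibroblast share went from 57.9% to 70.6% and the macrophage share from 31.6% to 10.2%. For *Cfb* fibroblasts went from 91.8% to 64.0%. *C1ra* and *Serping1* stayed mainly in fibroblasts in the callus, at 82.1% and 81.6%, with 8.33% of *Serping1* in osteolineage cells.

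**Figure D4:**
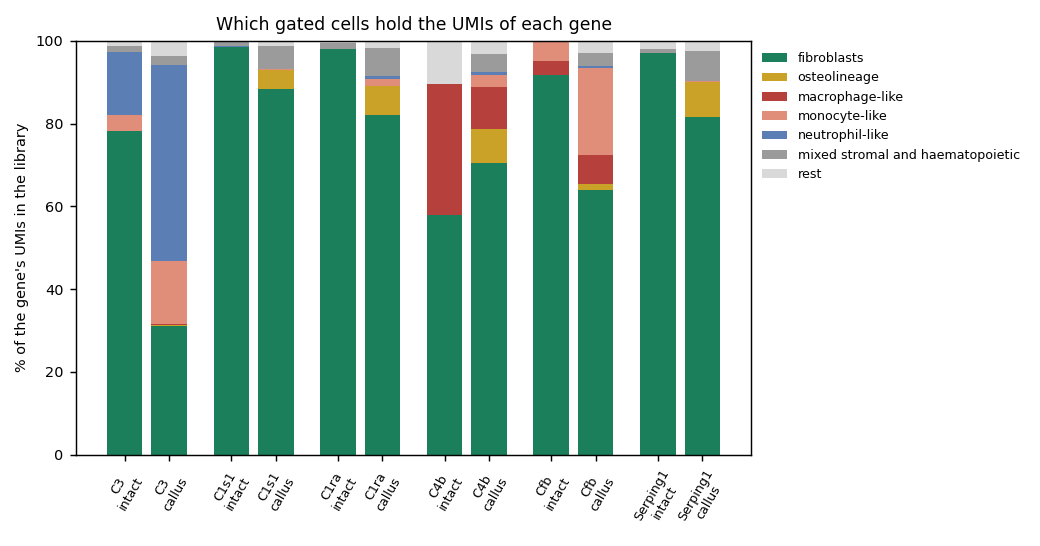
Share of each gene's UMIs held by fibroblasts, osteolineage and other gated cells in each library, as stacked bars of up to 100%. For *C3* the fibroblast share is 78.1% in the intact and 31.2% in the callus library, while *C1ra* and *Serping1* keep 82.1% and 81.6% in callus fibroblasts.

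The rest of the cascade was examined as 49 further genes in 6 lists. Of these, 9 had enough UMIs in fibroblasts, 1 was at least 2-fold higher in the callus, where 4.75% of all genes tested were, and 0 were lower, against 2.58%, with a median log2 ratio of 0.12 against 0.03 for all genes. The 1 was *C2*. It encodes the partner of C4 in the classical convertase, lies 0.086 kb from *Cfb*, and was at 8.87 and 31.4 CPM (1.82, 1.03 to 2.68). *Colec12*, which encodes a membrane collectin, was at 102.5 and 129 CPM (0.33, 0.05 to 0.61). In *Pi16*-type cells 8 genes had enough UMIs, 1 was 2-fold higher, *C2* at 3.28 and 19.6 CPM, against 3.2% of all genes, and 1 was lower, *Clu*, with an interval that spans 0, against 2.64%.

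The C1q genes, whose protein directs C1r and C1s, were highest in macrophage-like cells. *C1qa*, *C1qb* and *C1qc* were at 4228, 3795 and 2685 CPM in callus macrophage-like cells and at most 2.54 CPM in *Pi16*- and *Col15a1*-type fibroblasts. All of them also reached 20 CPM in monocyte-like cells of both libraries, and in callus dendritic-like, intact erythroid-like and callus muscle-like cells. In the 33 callus BMSC-like cells only *C1qb* of the C1q genes did, with *C1qa* at 3.73 CPM. *Cfd*, the protease that cleaves factor B, was at most 0.67 CPM in any type of at least 50 cells, and *Cfp*, which encodes properdin, was at 317 CPM in callus macrophage-like cells. Of the 7 terminal components 0 reached 20 CPM in fibroblasts as a whole. In smaller groups 1 component each did so: 25 intact fibroblasts without a further type, 41 callus *Col15a1*-type and 33 BMSC-like cells. The membrane inhibitor *Cd55* was at 1123 and 1183 CPM in *Pi16*-type fibroblasts. Receptors for the C3 and C5 fragments were found in myeloid cells, with *C3ar1* at 256 CPM in callus macrophage-like cells and *C5ar1* at 199 and 90.3 CPM in neutrophil-like cells.

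**Figure D5:**
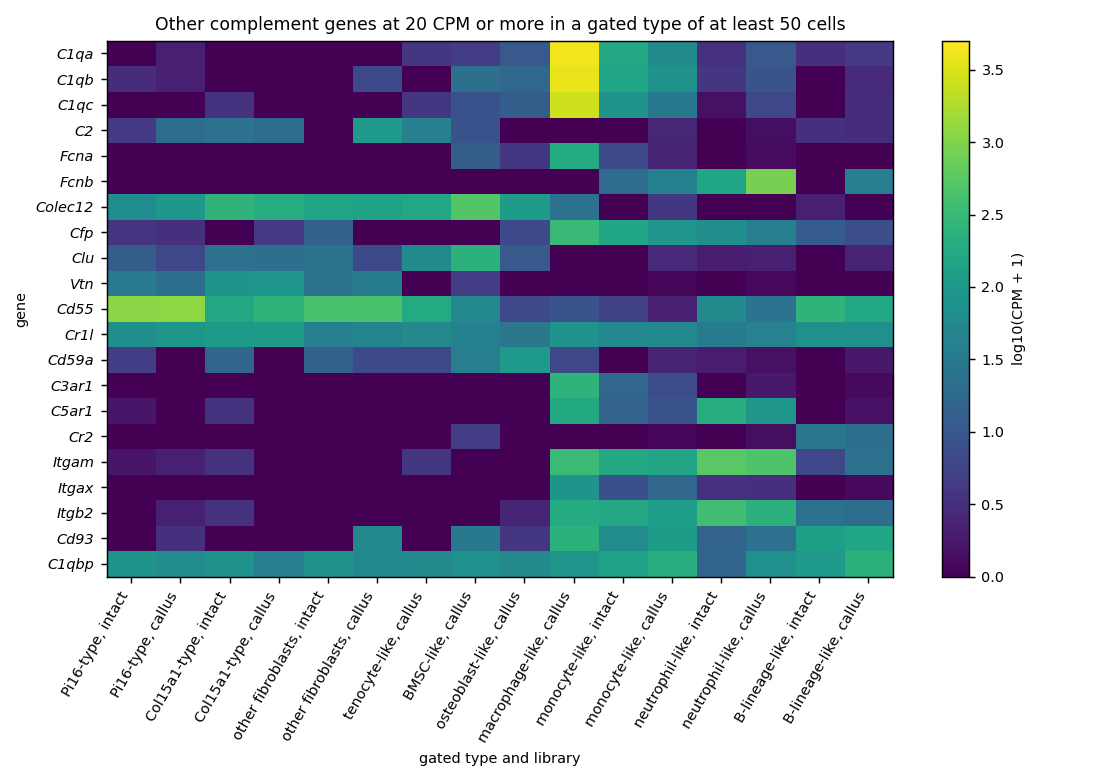
Level of the further complement genes that reached 20 CPM in some type of at least 50 cells (rows) by gated type and library (columns), as log10 of CPM plus 1 in colour. C1q genes stand out in macrophage-like cells at 4228, 3795 and 2685 CPM, and *Cd55* in *Pi16*-type fibroblasts at 1123 and 1183 CPM.

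Genes whose level ran most like that of each of the 6 across 26 combinations of type and library, among 10606 genes, were found by Pearson's r. It was taken on log2 of CPM plus 10. These combinations share the same 2 libraries and their depths, so r is a description. For *C1s1* it was *C1ra* (0.99), *Rarres2* (0.98) and *Cpxm1* (0.98), and for *Serping1* it was *Loxl1*, *Ogn* and *Col6a1* (each 0.99), the last of which is a marker of the stromal gate. For *C3* they were *Dram1* (0.90), *Pi16* (0.88), which is a marker of the *Pi16*-type gate, and *Lbp* (0.87). For *C4b* they were *Akr1b8* (0.87), *Cfb* (0.87) and *Aldh7a1* (0.86), and for *Cfb* they were *S1pr2* (0.96), *Adamts15* (0.88) and *Ang* (0.87). The near-identical copies of *C4b*, *C1ra* and *C1s1* are *C4a*, *C1rb* and *C1s2*, which match their transcripts at 96.1%, 98.0% and 95.9% of aligned bases. Over all barcodes they held 3 and 5, 0 and 2, and 0 and 2 UMIs, where *C4b* held 98 and 474, *C1ra* 465 and 583 and *C1s1* 880 and 1264. Reads that matched both copies equally could not be assigned, so the levels of these 3 genes carry that uncertainty.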

How the data were processed

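The authors processed the reads of both libraries (10x Genomics 3′ kit) with Cell Ranger (6.0.0 in the file header; mm10 per the labels) and deposited UMI counts per gene and barcode without normalization. Barcodes under 500 genes or over 10% mitochondrial UMIs were left out. Types were assigned by counts of detected markers: BMSC-like at least 5 of 7, osteoblast-like 4 of 9, tenocyte-like 3 of 9, *Pi16*-type 6 of 8, *Col15a1*-type 4 of 8, and other types 3 markers and 40% of a list. A cell that met both the BMSC-like and the osteoblast-like gate was called BMSC-like. 1 gene of the lists of further complement genes is not reported here. The 6 genes and all lists were chosen with earlier results of these data known. Doublets were kept, and removed in an alternative. UMIs were summed per type and library into CPM with exact Poisson intervals, ratios have exact conditional binomial intervals and shares Clopper-Pearson intervals, all at 95%. PCR duplicates were removed by UMI, and these intervals cover counting error only. A count of 0 was given the limit of 3 UMIs. Background shares are those of genes at least 2-fold apart among genes with at least 20 UMIs in the compared groups. Named further genes are those of the lists at or above 20 CPM in some type of at least 50 cells, and genes named for a like pattern are the 3 of highest Pearson r. Shares of cells were taken after thinning to 2000 UMIs, leaving out shallower cells. The scripts were tested on simulated data. Tools were python 3.11.15, numpy 2.4.6, scipy 1.17.1, pandas 2.3.3, scanpy 1.11.5, biopython 1.88 and matplotlib 3.10.9.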

Additional observations from a re-analysis of the deposited data

Results flagged for a closer look

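In 3 cases 1 fibroblast type moved against *Pi16*-type fibroblasts between the libraries. *C3* had a log2 ratio of callus over intact of -0.44 in the fibroblasts without a further type and 0.99 in *Pi16*-type cells. *C1ra* had -0.37 in *Col15a1*-type cells, with an interval of -0.81 to 0.07, and 0.63 in *Pi16*-type cells. *Serping1* had -0.21 in the fibroblasts without a further type, with an interval of -0.55 to 0.14, and 0.25 in *Pi16*-type cells. With 1 library per condition these differences between types were not tested.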

How the results depend on the processing

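No paired analysis was possible because tissue of the 3 mice was pooled and each condition gave 1 library. Leaving out a library was likewise impossible. In all fibroblasts 56 of 66 alternatives left the log2 ratio within its counting interval, in *Pi16*-type cells 52 of 54 and in *Col15a1*-type cells 47 of 48. *C4b* was at least 2-fold higher in all fibroblasts in 12 of 12 settings (2.63 to 3.15) and *Cfb* in 11 of 12 (0.17 to 2.43). Types from Leiden clusters gave 0.41 for *C3*, 0.44 for *C1s1* and -0.028 for *Serping1* in fibroblasts and 1.13 for *C3* in *Pi16*-type cells. These clusters named no *Col15a1*-type cells and 78 intact and 94 callus cells tenocyte-like. Results for *Col15a1*-type and tenocyte-like cells thus depend on the marker gate. Of the 561 callus monocyte-like cells 338 were also named so by clusters, and of the 83 intact erythroid-like cells 15 were. Results for these types depend on the gate as well. Equal weight for 4 fibroblast types gave -0.065 for *C1ra*, 0.17 for *Cfb* and -0.38 for *Serping1*, with 5 intact tenocyte-like cells counting as much as 204 *Pi16*-type cells, and 85.7% of their 7 *Cfb* UMIs in 1 cell. Equal weight for the 3 types of at least 20 cells, added after seeing the data, gave 0.43 for *C3* and 2.43 for *Cfb*. Thinning gave 0.65 for *C3* and 0.19 for *Serping1* in fibroblasts and 0.064 for *Cfb* in *Col15a1*-type cells, and the mean per cell gave 0.85 for *C3* in *Pi16*-type cells. The genes above every other type numbered 5 to 6 in the intact and 4 to 5 in the callus library over 8 settings each. The share of fibroblasts with at least 2 UMIs after thinning was 46.0% and 45.8% (intact and callus) for *C3*, 22.2% and 37.3% for *C1s1*, 10.3% and 13.9% for *C1ra*, 1.15% and 9.95% for *C4b*, 1.15% and 2.99% for *Cfb* and 64.8% and 62.7% for *Serping1*. Without thinning the shares with 1 UMI were 80.1% and 67.4%, 85.0% and 87.6%, 71.0% and 77.1%, 10.5% and 32.6%, 11.2% and 30.3%, and 95.5% and 96.8% in the same order. Averaged over all draws, also added later, *C4b* was at 4.09% and 21.0% and *Cfb* at 4.43% and 14.4%. The ratio of *C1ra* and that of *Serping1*, both small, were the only ones of all fibroblasts to change sign under an alternative. The cause of these moves was not tested. Removing the highest Scrublet scores (12 intact and 87 callus cells) took out only 2 intact and 10 callus fibroblasts. It moved none of the fibroblast ratios beyond its interval, a check that rests on these few cells. Depth limits *C4b* and *Cfb* in intact fibroblasts, which rest on 55 and 56 UMIs.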

Other observations

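The 665 intact and 692 callus barcodes that were left out for few genes or many mitochondrial UMIs held little of the 6 genes. *C3* was at 3.27 CPM in the intact and 33.0 CPM in the callus barcodes, and *Serping1* at 2.61 and 12.8 CPM. Callus B-lineage-like cells held *C3* at 11.1 CPM and the neutrophil gene *S100a8* at 2390 CPM, where intact B-lineage-like cells held 0 UMIs of *C3* and *S100a8* at 93.6 CPM. Among the further complement genes *Fcnb*, which encodes a ficolin of myeloid granules, was at 153 CPM in intact and 883 CPM in callus neutrophil-like cells, and *Colec12* at 508 CPM in BMSC-like cells.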
